A study of Oryza sativa Japonica Group with 10 samples.

Results

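The plasma membrane intrinsic proteins (PIPs) are the aquaporins of the plant plasma membrane, and 10 rice genes of this family were followed here in the shoot by their locus IDs, which belong to the list by family membership. No measured value enters that rule, though the family was picked with earlier results of these data known. Of these 10 genes, 9 had rows among the 55689 gene IDs of the files, and all 9 passed the filter on low counts. The other gene, PIP2-3 (LOC_Os04g44060), was not analysed here. Names are spelled as in RefSeq, where PIP1-1, for example, is also listed as OsPIP1;1. The files give IDs only, so the names rest on the list of IDs and not on the files.

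PIPs form tetrameric channels that let water cross the plasma membrane, and they fall into a PIP1 and a PIP2 subgroup. In oocyte assays of many plants, PIP2 proteins raise water permeability on their own, whereas most PIP1 proteins do so mainly when a PIP2 partner is present, and in maize this partner brings the PIP1 protein to the plasma membrane. Plants adjust the water conductance of roots and leaves through the amount, the phosphorylation and the trafficking of these channels, so that a transcript level is only one of the layers involved. RNA levels were the only layer measured here.

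RNA-seq was done on shoots of rice plants of the variety Zhonghua 11 (ZH11) at the four-leaf stage. The files hold 3 libraries of wild-type ZH11 under normal conditions, 2 of ZH11 under drought, 3 of OsJAZ1-OE under normal conditions and 2 of OsJAZ1-OE under drought. Drought was applied until the soil held 10 to 15% water. OsJAZ1-OE is a single transgenic line in the ZH11 background (OE-1), in which the drought-inducible OsLEA3-1 promoter drives OsJAZ1, a repressor of jasmonate signaling. With 1 line, an effect of OsJAZ1 and an effect of that line cannot be told apart. A further drought library of each genotype, which the study left out for its low correlation with the others, was not analysed here.

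The libraries held 32396154 to 34027909 expected counts, which appear to carry 1 factor per library, or 28610600 to 37796265 fragments with that factor divided out. The study calls them biological replicates, and what the replicate numbers mark was not stated. In the main fit the p-values rest on the spread between these samples, estimated over all 4 groups together. The ZH11 drought pair varied more than the other pairs (mean chi-square per gene between replicates 21.7 against 6.59 to 11.2). That shared spread can therefore be too small for comparisons with ZH11 drought. OsJAZ1 (LOC_Os04g55920), the gene overexpressed, lay at 110 to 117 FPKM (fragments scaled by transcript length and library depth) in ZH11 normal and at 126 and 147 in ZH11 drought. In OsJAZ1-OE it lay at 1200 to 1281 under normal conditions and at 1177 and 1388 under drought, so the labels of genotype held in all 10 libraries. With drought OsJAZ1 did not pass edgeR's test in OsJAZ1-OE (log2 fold change −0.059), whereas it passed upward in ZH11 (0.259). OsJAZ1 was thus already high in the line under normal conditions. All 5 drought marker genes (RAB16A to RAB16D and OsLEA3) passed the test upward in both genotypes. The ZH11 drought libraries stood apart from each other, with summed marker levels of 213 FPKM in replicate 1 and 517 in replicate 2, against 230 and 266 in OsJAZ1-OE drought. Results that rest on one of them are given with and without it. Of 8 root marker genes, 2 to 5 were at 0 in every library of a group, OsNRT2.2 in all 4 groups, and the list summed to 7.66 to 13.4 FPKM. The sum of 7 green shoot markers was 11966 to 12755 in ZH11 normal against 8347 and 8575 in ZH11 drought, and 10779 to 12116 against 7575 and 8049 in OsJAZ1-OE, with 6 of the 7 lower and 1 higher by edgeR's test in each genotype. Of 9 clock genes, 2 passed the test downward with drought in ZH11 and 4 in OsJAZ1-OE. The part of either list in the results below was not tested.

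The 9 genes lie on chromosomes 2, 4, 7 and 9 in the files' coordinates (genome build not given in the sources used here). On chromosome 2 are PIP2-2 (LOC_Os02g41860, 25162543 to 25166617, 4 transcripts listed), PIP1-1 (LOC_Os02g44630, 27044274 to 27047453, 4 transcripts) and PIP1-3 (LOC_Os02g57720, 35349660 to 35351454, 2 transcripts). On chromosome 4 are PIP2-6 (LOC_Os04g16450, 8948206 to 8950303, 2 transcripts), the only one on the minus strand, and PIP1-2 (LOC_Os04g47220, 28046537 to 28048542, 1 transcript). PIP2-7 (LOC_Os09g36930, 1 transcript) is on chromosome 9 at 21310129 to 21311548. The remaining 3 lie near one another on chromosome 7, and other genes between them were not looked for. PIP2-4 (LOC_Os07g26630, 15358960 to 15360495, 1 transcript) is followed by PIP2-5 (LOC_Os07g26660, 15376916 to 15378292, 1 transcript) after 16421 bases, and PIP2-1 (LOC_Os07g26690, 15406442 to 15409801, 2 transcripts) follows after 28150 more. PIP coding sequences resemble one another, and the treatment of reads that match several genes was not stated, so the levels of single members, and of the low PIP2 genes above all, are uncertain to that extent.

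PIP transcripts were abundant in the shoot and very unequal. PIP2-7, which in rice has also been described as an arsenite-permeable channel, had the highest FPKM in all 4 groups, and PIP2-4 the lowest. In ZH11 normal the mean FPKM was 2874 ± 333 (SD, n = 3) for PIP2-7 and 996 ± 63.4 for PIP1-2. It was 422 ± 46.1 for PIP1-1 and 368 ± 66.9 for PIP2-1. PIP2-6 had 227 ± 47.3 and PIP1-3 had 80.4 ± 8.10. PIP2-2 lay at 28.9 ± 1.72, PIP2-5 at 4.78 ± 1.10 and PIP2-4 at 3.13 ± 0.236. The order of the 9 means was the same in all 4 groups. Neighbours in this order did not overlap between libraries of a group, except PIP1-1 and PIP2-1 in ZH11 normal. PIP2-8 (LOC_Os03g64330), a PIP gene outside the 10, was at 0 in 9 libraries and at 0.0735 FPKM in the other.

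The order of PIP2-1 and PIP2-6 depended on the scale. The authors' FPKM exceeded the count per kilobase of listed transcript length, scaled to library depth, by a mean factor of 1.51 (PIP1-3) to 3.09 (PIP2-5), where the median over 18617 genes with at least 50 counts in every library was 0.962. On that plain scale PIP2-6 stood above PIP2-1 in OsJAZ1-OE normal, at 149 against 145, and the libraries of PIP2-1 and PIP2-6 overlapped in 3 of the 4 groups, as did those of PIP2-5 and PIP2-4. PIP2-7, PIP1-2 and PIP1-1 kept the first 3 ranks in every group on both scales.

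**Figure D1:**
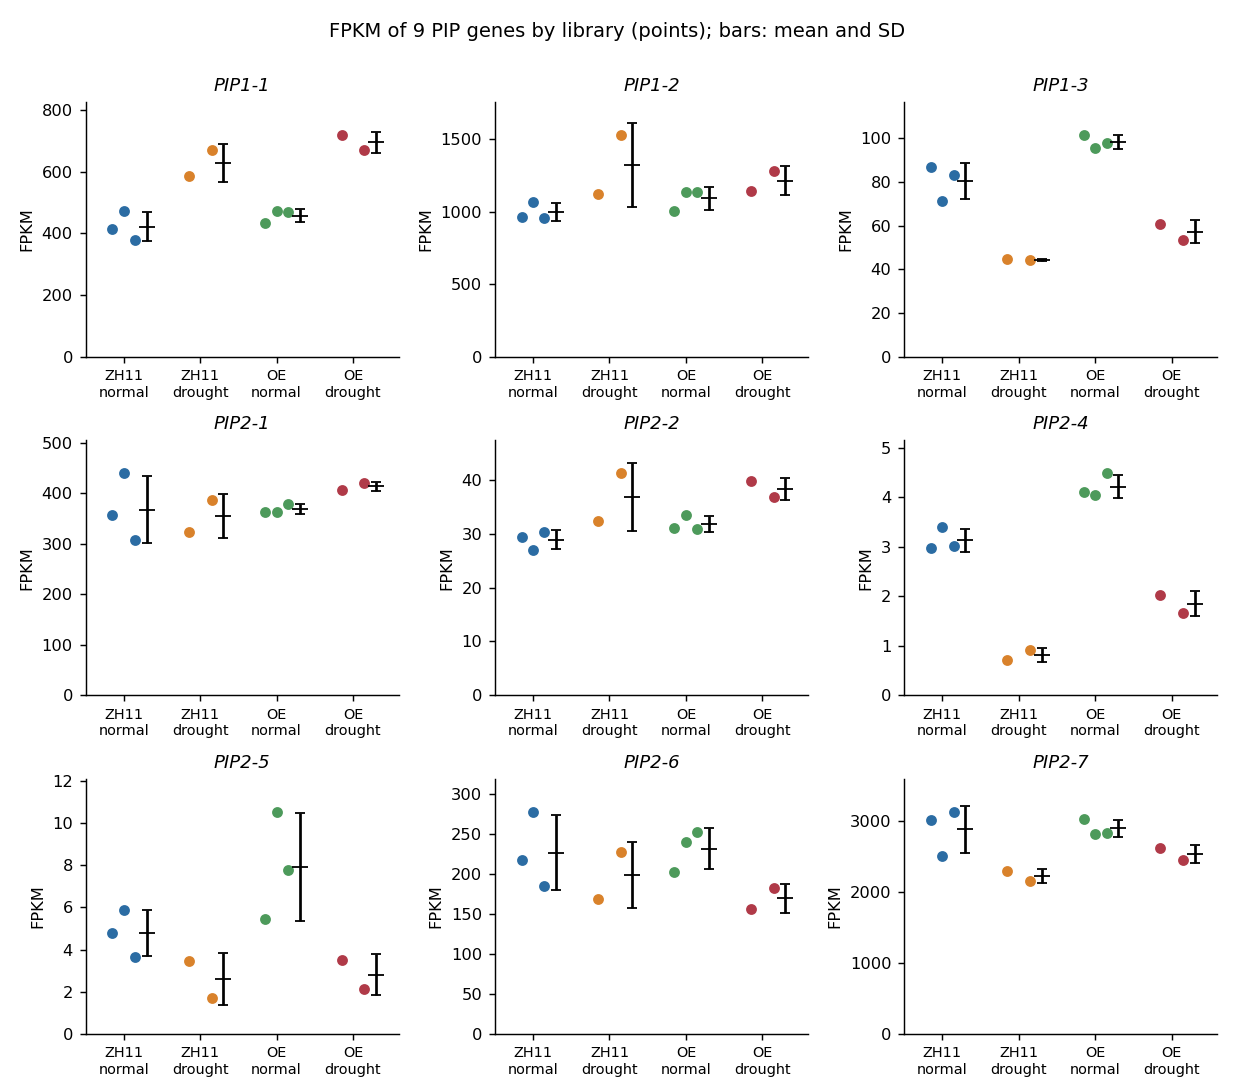
FPKM of the 9 PIP genes in each of the 10 libraries (points, 1 panel per gene, each vertical axis from 0), with the mean and SD of each group beside them; OE stands for OsJAZ1-OE. PIP1-1, PIP1-2 and PIP2-2 were higher in every drought library than in the normal libraries of their genotype, and PIP1-3, PIP2-4, PIP2-5 and PIP2-7 were lower.

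The first question was how drought changed these genes in wild-type ZH11. PIP1-1, PIP1-2 and PIP2-2 rose, PIP1-3, PIP2-4 and PIP2-7 fell, and PIP2-1, PIP2-5 and PIP2-6 did not pass the test. A gene passed at an adjusted p under 0.05 in edgeR's quasi-likelihood test, adjusted over all 24850 genes tested. The 3 members higher compare with 21.6% of all genes called higher, and the 3 lower with 22.8% called lower. The median log2 fold change of the 9 genes was −0.20, where that of all genes was 0.00. In 7 of the 9 the ZH11 drought and normal libraries did not overlap in FPKM, which held for 62.4% of all genes. In these bulk shoots, fewer cells of a type and less RNA per cell cannot be told apart.

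In OsJAZ1-OE, PIP1-1 and PIP2-2 rose with drought and PIP1-3, PIP2-4 and PIP2-5 fell, while PIP1-2, PIP2-1, PIP2-6 and PIP2-7 did not pass. The 2 higher members compare with 19.1% of all genes, and the 3 lower with 20.0%. Their median log2 fold change was −0.22 against 0.00 over all genes. For all 9 genes the OsJAZ1-OE drought and normal libraries did not overlap in FPKM, with 4 above and 5 below. That held for 61.3% of all genes. For PIP1-2 the margin was narrow, with a lowest drought value of 1144 against a highest normal value of 1137. As a share of the expected counts of the 9 genes, PIP1-2 overlapped, at 23.4 to 27.14% under drought against 21.06 to 23.6%. With a further limit of a log2 fold change of at least 1, PIP2-4 was the only member called in ZH11, and it was lower, where 9.03% of all genes were lower by that much. In OsJAZ1-OE, PIP2-4 and PIP2-5 were called lower, against 6.62% of all genes.

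**Figure D2:**
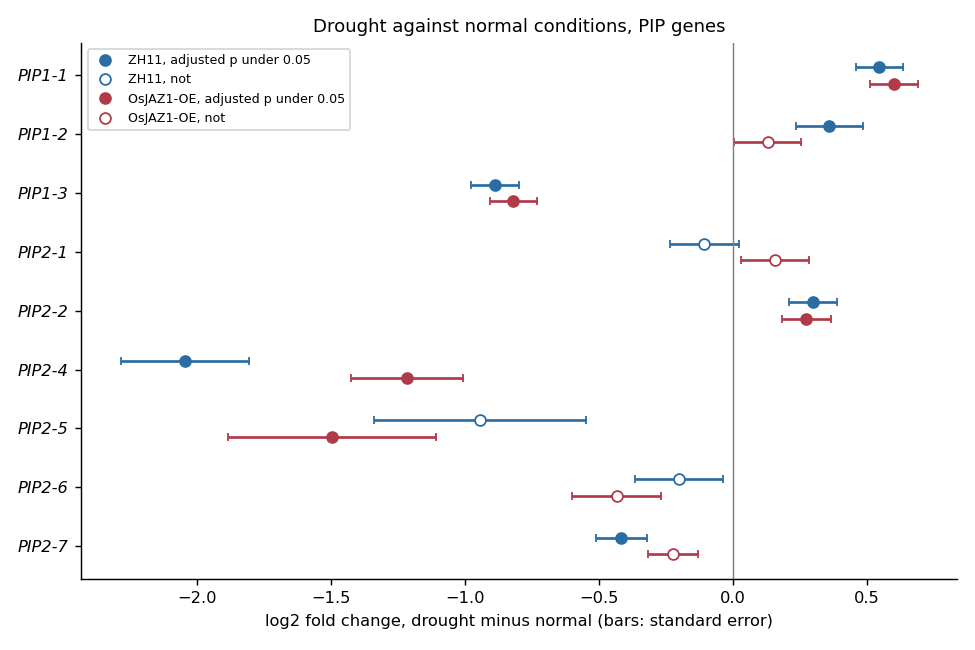
Log2 fold change of drought over normal conditions for each PIP gene in ZH11 (blue) and OsJAZ1-OE (red), from edgeR's quasi-likelihood fit, with bars of 1 standard error; filled points had an adjusted p under 0.05. PIP1-1 and PIP2-2 lie above 0 and PIP1-3 and PIP2-4 below 0 as filled points in both genotypes.

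Among the PIP1 genes, PIP1-1, also known as RWC1, rose in both genotypes. Its FPKM was 414, 471 and 380.0 in the ZH11 normal libraries and 585 and 671 in the ZH11 drought libraries. In OsJAZ1-OE it was 433, 472 and 468 under normal conditions and 719 and 671 under drought. Every drought library was above every normal library of either genotype. The log2 fold change with drought was 0.55 in ZH11 (standard error 0.09, edgeR adjusted p = 0.000554) and 0.60 in OsJAZ1-OE (standard error 0.09, edgeR adjusted p = 0.000375), or 1.46 and 1.52 times.

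PIP1-2, the most abundant PIP1 gene, is a channel through which CO2 has also been described to pass in rice. Its FPKM was 961, 1069 and 958 in ZH11 normal, 1119.5 and 1530.2 in ZH11 drought, 1002, 1137 and 1137 in OsJAZ1-OE normal, and 1144 and 1284 in OsJAZ1-OE drought. The drought libraries were above the normal ones in each genotype, in OsJAZ1-OE by a narrow margin. In ZH11 the log2 fold change was 0.36 (standard error 0.13, edgeR adjusted p = 0.0367), and it rested on 1 library. Without ZH11 drought replicate 2 it was 0.12 (edgeR adjusted p = 0.458), and the call also ended without ZH11 normal replicate 1 (edgeR adjusted p = 0.0990), without ZH11 normal replicate 3 (edgeR adjusted p = 0.0835) and with only the ZH11 libraries in the fit (edgeR adjusted p = 0.0677). In OsJAZ1-OE the log2 fold change was 0.13 with a 95% interval of −0.15 to 0.41 (edgeR adjusted p = 0.440).

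PIP1-3, known as RWC3 from work on water uptake in upland and lowland rice, fell in both genotypes. Its FPKM was 86.6, 71.2 and 83.2 in ZH11 normal against 44.7 and 44.1 in ZH11 drought. In OsJAZ1-OE it was 102, 95.5 and 97.6 against 60.9 and 53.4. The groups did not overlap, and within each condition the transgenic libraries were all above the wild-type ones. The fall was −0.89 on the log2 scale in ZH11 (standard error 0.09, edgeR adjusted p = 1.97e-05) and −0.82 in OsJAZ1-OE (standard error 0.09, edgeR adjusted p = 4.41e-05), to 0.541 and 0.567 of the normal level.

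Among the PIP2 genes, PIP2-7 carried most of the PIP2 sum. Its FPKM was 3005, 2495 and 3122 in ZH11 normal and 2291 and 2153 in ZH11 drought. In OsJAZ1-OE it was 3025, 2813 and 2826 under normal conditions and 2616 and 2443 under drought. Both drought groups were below their normal groups. The log2 fold change in ZH11 was −0.42 (standard error 0.10, edgeR adjusted p = 0.00468), and the gene stayed called with each of the other fits and without each library. In OsJAZ1-OE it was −0.22 (standard error 0.09, edgeR adjusted p = 0.0849), which passed with DESeq2 (adjusted p = 0.0274), with only the OsJAZ1-OE libraries in edgeR's fit (adjusted p = 0.0298) and, in edgeR, without ZH11 normal replicate 2 (adjusted p = 0.0236).

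PIP2-1, whose knockdown in rice has been described to lower root water conductance, did not pass the test with drought in either genotype. Its FPKM was 357, 440 and 307 in ZH11 normal and 323 and 386 in ZH11 drought, so the groups overlapped. In OsJAZ1-OE the values were 363, 363 and 379 under normal conditions and 407 and 419.8 under drought. The log2 fold change was −0.11 in ZH11 (95% interval −0.39 to 0.18, edgeR adjusted p = 0.532) and 0.16 in OsJAZ1-OE (95% interval −0.13 to 0.44, edgeR adjusted p = 0.358). The latter passed only with the OsJAZ1-OE libraries fitted alone (edgeR adjusted p = 0.0495).

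PIP2-6, another PIP that has been described to pass arsenite in rice, was lower under drought in both means without passing the test. Its FPKM was 218, 278 and 185 in ZH11 normal, 169 and 228 in ZH11 drought, 203, 241 and 253 in OsJAZ1-OE normal, and 157 and 183 in OsJAZ1-OE drought. The ZH11 groups overlapped and the OsJAZ1-OE groups did not. In OsJAZ1-OE the log2 fold change was −0.43 (standard error 0.17, edgeR adjusted p = 0.0591). Over the 18 alternatives its adjusted p ran from 0.0109 to 0.299, and 8 of them passed.

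PIP2-2 rose by a small amount in both genotypes. Its FPKM was 29.4, 26.98 and 30.3 in ZH11 normal, 32.3 and 41.2 in ZH11 drought, 31.1, 33.5 and 30.8 in OsJAZ1-OE normal, and 39.7 and 36.8 in OsJAZ1-OE drought. The drought libraries were above the normal libraries of their genotype. The log2 fold change was 0.30 in ZH11 (standard error 0.09, edgeR adjusted p = 0.0208) and 0.27 in OsJAZ1-OE (standard error 0.09, edgeR adjusted p = 0.0341). In ZH11 the call ended without drought replicate 2 (log2 fold change 0.15, edgeR adjusted p = 0.247) and without normal replicate 2 (edgeR adjusted p = 0.0551). In OsJAZ1-OE it ended on FPKM with limma at a pseudocount of 0.1 (adjusted p = 0.0733) or 1 (adjusted p = 0.0730), with the replicate number as a block in edgeR (adjusted p = 0.0633) and, in edgeR, without normal replicate 1 (adjusted p = 0.0708), normal replicate 3 (adjusted p = 0.107), drought replicate 1 (adjusted p = 0.200) or drought replicate 2 (adjusted p = 0.0597).

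PIP2-4 and PIP2-5, both on chromosome 7, were the scarcest of the 9 in FPKM in all 4 groups. PIP2-5 is known from rice as a gene expressed mainly in roots. PIP2-4 had 2.98, 3.40 and 3.01 FPKM in ZH11 normal and 0.713 and 0.907 in ZH11 drought. In OsJAZ1-OE it had 4.11, 4.05 and 4.48 under normal conditions and 2.03 and 1.67 under drought. The 4 groups did not overlap, with ZH11 drought lowest and OsJAZ1-OE normal highest. Its log2 drought response was −2.04 in ZH11 (standard error 0.24, edgeR adjusted p = 6.09e-05) and −1.22 in OsJAZ1-OE (standard error 0.21, edgeR adjusted p = 0.00108), to 0.243 and 0.431 of the normal level, and both calls held in all 18 alternatives. On the log2(FPKM + 1) scale, which shrinks changes of genes this low, the ZH11 value was −1.19. The depth behind this gene was small, with 56 to 59 fragments per library in ZH11 normal and 13 in each ZH11 drought library, once the factor of each library was divided out. OsJAZ1-OE had 60 to 79 fragments under normal conditions and 28 and 37 under drought.

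PIP2-5 varied more between replicates. It had 4.81, 5.86 and 3.67 FPKM in ZH11 normal, 3.47 and 1.71 in ZH11 drought, 5.45, 10.5 and 7.76 in OsJAZ1-OE normal, and 3.49 and 2.11 in OsJAZ1-OE drought. The drought libraries were below the normal libraries of their genotype, by a narrow margin in ZH11. In OsJAZ1-OE the log2 fold change was −1.50 (standard error 0.39, edgeR adjusted p = 0.0108), a call that ended without OsJAZ1-OE drought replicate 2 (−1.19, edgeR adjusted p = 0.0959). In ZH11 it was −0.94 (standard error 0.40, edgeR adjusted p = 0.0754), and it depended on the library. It was −1.60 without ZH11 drought replicate 1 (edgeR adjusted p = 0.0297) and −0.50 without ZH11 drought replicate 2 (edgeR adjusted p = 0.419). It also passed without the filter on low counts (edgeR adjusted p = 0.0482). Of the root marker genes, OsNramp5 (LOC_Os07g15370), a manganese transporter, moved the same way, at −4.25 on the log2 scale in ZH11 and −3.53 in OsJAZ1-OE (mean FPKM from 5.71 to 0.305 and from 6.42 to 0.557). OsLsi1 (LOC_Os02g51110), a silicon channel, moved the other way, by 1.09 and 0.62, and the other 6 were too low to test. Of these 6, RCc3 and OsCASP1 were lower in every drought library than in the normal libraries of their genotype. RCc3 had a mean of 0.264 FPKM in ZH11 normal, 0.498 in OsJAZ1-OE normal and 0 in both drought groups. OsCASP1 had 0.369 in ZH11 normal, 0.0919 in ZH11 drought, 0.408 in OsJAZ1-OE normal and 0.0428 in OsJAZ1-OE drought. The remaining genes had group means of 0 to 0.0464, with OsAMT1;2 above 0 only under drought. The list sum thus joins opposite changes. The part of root tissue in the PIP values was not tested.

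The second question was whether the sum of these transcripts or their mix changed. The summed FPKM of the 9 genes was 5004 ± 124 in ZH11 normal (SD, n = 3), 4812 ± 343 in ZH11 drought (n = 2), 5180.2 ± 20.6 in OsJAZ1-OE normal (n = 3) and 5122 ± 38.0 in OsJAZ1-OE drought (n = 2). The ZH11 drought libraries, at 4569.7 and 5055, lay on either side of the lowest ZH11 normal library at 4861. In OsJAZ1-OE drought the libraries held 5149 and 5095 FPKM, both narrowly below the lowest normal library at 5167. By percent of expected counts the OsJAZ1-OE groups overlapped, at 0.3367 and 0.3511 under drought and 0.3504 to 0.3563 under normal conditions. The 9 genes took 0.303 to 0.356% of the expected counts of a library.

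The mix shifted from PIP2 toward PIP1 transcripts under drought in both genotypes, which is given as a description with no test. The 3 PIP1 genes summed to 1421 to 1612 FPKM in ZH11 normal against 1749 and 2245 in ZH11 drought, and the 6 PIP2 genes to 3249 to 3650.4 against 2810.3 and 2820.5. The PIP1 share of the sum was 28.0 to 33.2% in ZH11 normal and 38.3 and 44.4% in ZH11 drought. In OsJAZ1-OE it was 29.7 to 33.0% under normal conditions and 37.4 and 39.4% under drought, so that the drought and normal libraries did not overlap in either genotype. PIP1-2 and PIP1-1 made up most of this PIP1 share, since PIP1-3, which fell, was 0.872 to 1.97% of the sum. PIP2-7 likewise held most of the PIP2 sum, with a mean of 2222 of 2815 FPKM in ZH11 drought, while PIP2-2 rose. The shift in the sums thus rests on the abundant genes and was not shared by every member. In OsJAZ1-OE neither PIP1-2 nor PIP2-7 passed edgeR's test with drought. The share of PIP2-7 was 51.3 to 61.6% in ZH11 normal and 42.6 and 50.1% in ZH11 drought, and 54.3 to 58.5% and 47.95 and 50.8% in OsJAZ1-OE. On the plain count scale the mean PIP1 share was higher, at 35.1% in ZH11 normal, 47.1% in ZH11 drought, 37.2% in OsJAZ1-OE normal and 44.7% in OsJAZ1-OE drought, and the difference between conditions had the same sign.

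**Figure D3:**
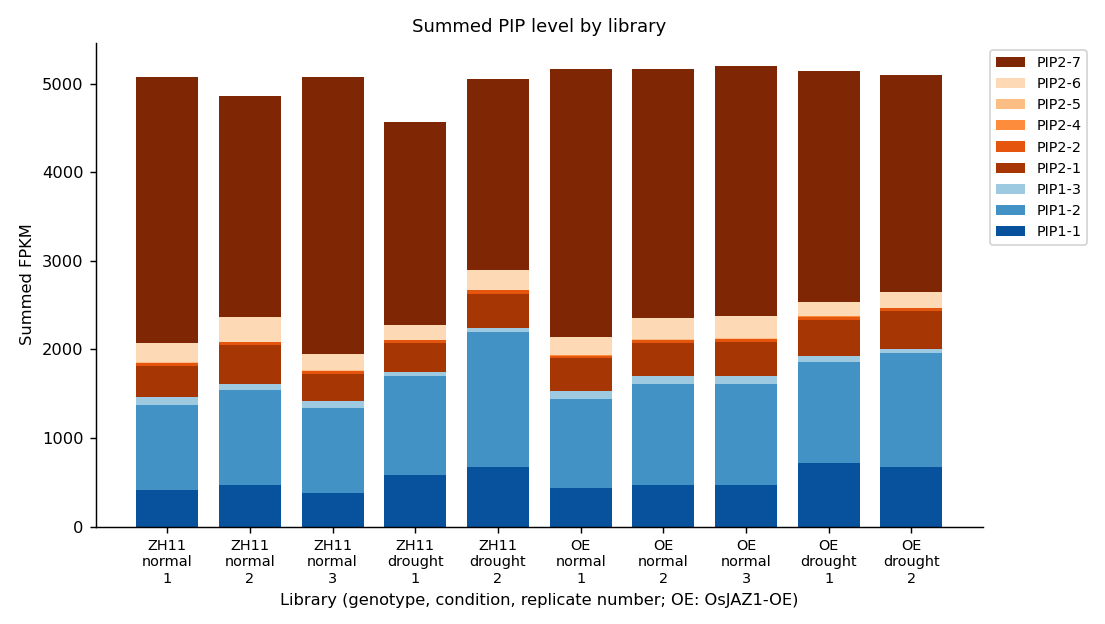
Summed FPKM of the 9 PIP genes in each library, stacked by gene (PIP1 genes in blue at the bottom, PIP2 genes in brown and orange, PIP2-7 on top); the axis starts at 0. The total runs from 4569.7 FPKM in ZH11 drought replicate 1 to 5204 in OsJAZ1-OE normal replicate 3, and the blue part is larger in the drought libraries.

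The third question was whether OsJAZ1-OE differed from ZH11. Under normal conditions none of the 9 genes passed edgeR's test, where 3.83% of all genes did, and 1 of the 9 (PIP1-3) had an unadjusted p under 0.05. PIP1-3 was higher in all 3 OsJAZ1-OE libraries than in any ZH11 library, with a log2 fold change of 0.27 (95% interval 0.11 to 0.44, edgeR adjusted p = 0.0813). It was called by DESeq2 (adjusted p = 0.0250), without the filter on low counts (edgeR adjusted p = 0.0370) and in none of the limma fits. PIP2-4 was also higher in all 3 OsJAZ1-OE libraries (0.37, 95% interval −0.01 to 0.76, edgeR adjusted p = 0.307), and so was PIP2-2 (0.10, 95% interval −0.08 to 0.28, edgeR adjusted p = 0.606). These 3 of 9 compare with 22.7% of all genes whose libraries did not overlap in FPKM. The interval of PIP2-7 was −0.22 to 0.16, and that of PIP2-5, the widest, −0.03 to 1.37.

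Under drought, PIP2-4 was the only member called, where 3.68% of all genes passed in either direction and 1.51% were higher with a log2 fold change of at least 1. It was higher in OsJAZ1-OE by 1.20 (95% interval 0.61 to 1.79, edgeR adjusted p = 0.0334), or 2.30 times, with 2.03 and 1.67 FPKM against 0.713 and 0.907. The direction held in all alternatives and the call did not. The adjusted p was 0.0801 with DESeq2, 0.0504 in edgeR without the filter and 0.216 in edgeR with only the drought libraries. Leaving out any library but ZH11 normal replicate 2 also ended the call in edgeR, with an adjusted p of up to 0.175 without ZH11 drought replicate 1. PIP1-3 was again higher in OsJAZ1-OE (0.34, 95% interval 0.13 to 0.55, edgeR adjusted p = 0.0825), and was called by DESeq2 (adjusted p = 0.0274). PIP1-1, PIP2-1 and PIP2-7 were likewise higher in both OsJAZ1-OE drought libraries than in both ZH11 ones. These 5 of 9 compare with 45.7% of all genes that did not overlap in FPKM. The genotype comparisons and the drought comparisons share libraries.

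**Figure D4:**
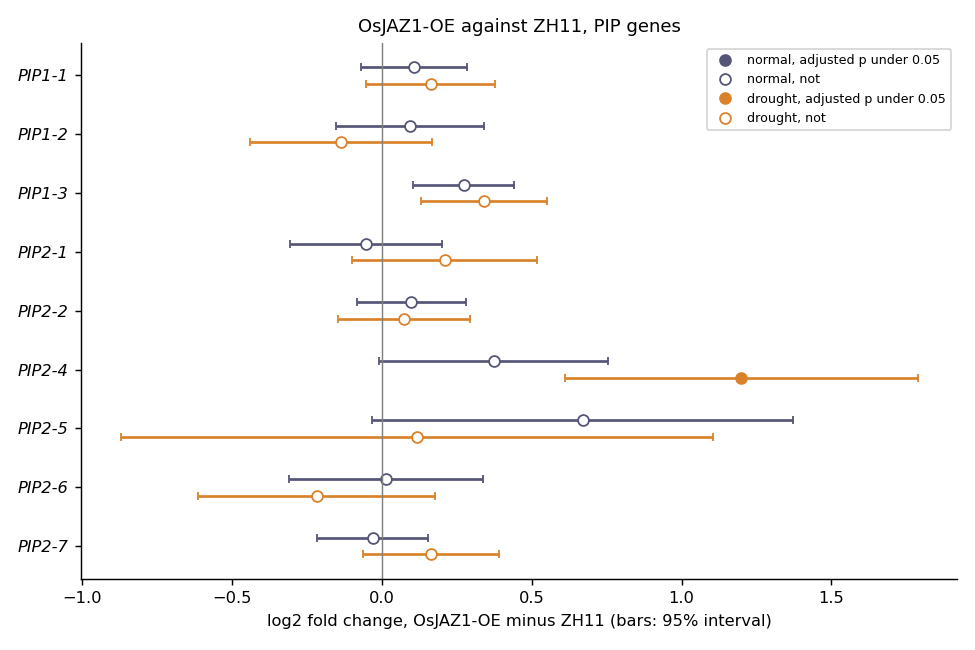
Log2 fold change of OsJAZ1-OE over ZH11 for each PIP gene under normal conditions and under drought, from edgeR's quasi-likelihood fit, with 95% intervals; filled points had an adjusted p under 0.05. PIP2-4 under drought, at 1.20, is the only filled point, and both PIP1-3 intervals lie above 0.

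The fourth question was whether the drought response itself differed between the genotypes. The difference of responses, OsJAZ1-OE minus ZH11, did not pass for any of the 9 genes with edgeR, DESeq2 or limma, and for 0% of all genes in edgeR, of which 2097 had an unadjusted p under 0.05. Among the 9 genes, PIP2-4 had the only unadjusted p under 0.05. Its fall was smaller in OsJAZ1-OE by 0.83 on the log2 scale (95% interval 0.13 to 1.53, edgeR adjusted p = 0.518). PIP1-1 had a difference of 0.06 (95% interval −0.22 to 0.33) and PIP1-3 one of 0.07 (−0.20 to 0.34). PIP1-2 and PIP2-7, each called in ZH11 and not in OsJAZ1-OE, had differences of −0.23 (−0.62 to 0.16) and 0.19 (−0.10 to 0.49). PIP2-5, called in OsJAZ1-OE and not in ZH11, had one of −0.55 (−1.77 to 0.66), so that a difference in response was not shown for any of these 3 genes.

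Most of the 5 genes with several listed transcripts were carried by 1 transcript. In PIP1-1 a transcript of 1298 bases held 99.0 to 99.6% of the FPKM, and in PIP2-1 one of 1350 bases held at least 96.9%. In PIP1-3 a transcript of 1549 bases held at least 94.2%, and in PIP2-2 one of 1666 bases held 81.8 to 92.2%. The minor PIP2-1 transcript of 1474 bases had 1.33 to 1.70% in ZH11 normal and 2.69 and 3.12% in ZH11 drought, and 1.73 to 2.01% and 2.04 and 2.33% in OsJAZ1-OE.

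PIP2-6 was the exception, with both of its transcripts at appreciable levels. The shorter one of 1629 bases held 26.7, 25.4 and 24.1% of the gene's FPKM in ZH11 normal, and 13.8 and 26.6% in ZH11 drought. In OsJAZ1-OE it held 24.1, 19.5 and 23.7% under normal conditions and 7.88 and 14.7% under drought. In OsJAZ1-OE both drought libraries were below the normal ones, whereas in ZH11 the drought libraries were far apart. In OsJAZ1-OE its mean FPKM was 51.9 under normal conditions and 19.7 under drought, and that of the longer transcript of 1821 bases was 180.2 and 150.1. These shares are the authors' estimates for overlapping transcripts and were not tested.

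**Figure D5:**
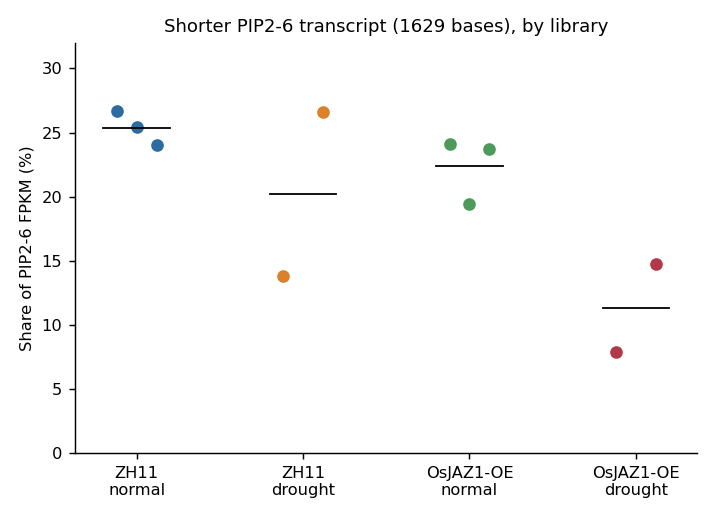
Share of the PIP2-6 FPKM assigned to its shorter transcript of 1629 bases, in percent, for each library (points) with the group mean (line); the rest belongs to the transcript of 1821 bases. Both OsJAZ1-OE drought libraries, at 7.88 and 14.7%, lie below the 3 normal libraries of that line, and the ZH11 drought libraries lie at 13.8 and 26.6%.

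Across the 10 libraries the members fell into genes that moved together and genes that moved apart. The log2 levels of PIP1-3 and PIP2-4 had a Pearson correlation of 0.95 (Spearman 0.93), and those of PIP1-3 and PIP2-7 one of 0.90 (Spearman 0.83). PIP1-1 and PIP2-2 had 0.87 (Spearman 0.75), while PIP1-1 and PIP2-7 had −0.86 (Spearman −0.84). The libraries share 2 conditions and 2 genotypes, so these values describe the same drought differences again and carry no test. The 5 genes other than aquaporins that were most like the mean scaled level of the 9 PIP genes over the 10 libraries were LOC_Os11g04530 (Pearson 0.94), LOC_Os04g52270 (0.94), LOC_Os01g32640 (0.94), LOC_Os12g05830 (0.93) and LOC_Os03g13950 (0.92). That mean joins members that moved in opposite directions, so it need not follow any single PIP gene. These genes are also the highest values among all tested genes outside the aquaporins, and they carry no test.

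The other aquaporins listed are the TIPs, which sit mainly in the tonoplast, members of the NIP and SIP subfamilies, and PIP2-8. NIP2-1 (LOC_Os02g51110) in this list is the same gene as the root marker OsLsi1. Of 17 listed, 12 could be tested, and with drought 3 rose and 5 fell in each genotype, where 21.6% of all genes rose and 22.8% fell in ZH11, and 19.1% and 20.0% in OsJAZ1-OE. The 3 with the lowest adjusted p in each genotype were TIP1-2, NIP2-2 and NIP3-1. TIP1-2 (LOC_Os01g74450), a tonoplast water channel, rose by 1.299 on the log2 scale in ZH11 and 1.09 in OsJAZ1-OE. It was also the only one of the 12 called between genotypes under drought, at −0.53 for OsJAZ1-OE over ZH11 (edgeR adjusted p = 0.0177), where 3.68% of all genes were called. NIP2-2 (LOC_Os06g12310), the silicon channel Lsi6, fell, with −1.62 and −1.10. NIP3-1 (LOC_Os10g36924), a boron channel, fell as well, with −1.53 in both. Their medians were −0.56 in ZH11 and −0.25 in OsJAZ1-OE, against −0.20 and −0.22 for the PIP genes.

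Plasma membrane H+-ATPases build the proton gradient across the membrane that holds the PIPs. Of 10 listed, 8 could be tested, and 3 rose and 2 fell with drought in each genotype, beside the same shares of all genes (21.6% and 22.8% in ZH11, 19.1% and 20.0% in OsJAZ1-OE). OSA1 (LOC_Os03g48310) rose by 2.44 in ZH11 and 1.90 in OsJAZ1-OE on the log2 scale. OSA9 (LOC_Os03g08560) rose by 1.07 and 1.06. OSA2 (LOC_Os07g09340) rose by 0.46 and 0.26, and OSA3 (LOC_Os12g44150) fell, with −0.16 and −0.28. OSA5 (LOC_Os08g14360), the other member that fell, had −0.56 and −0.62. OSA2 was also the only one of the 8 called between genotypes under drought, lower in the transgenic line at −0.30 on the log2 scale (standard error 0.07, edgeR adjusted p = 0.0476), again beside 3.68% of all genes.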

How the data were processed

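Per the study's methods, paired-end RNA-seq reads were processed on the BMKCloud platform. The authors deposited FPKM and expected counts per transcript, and the labels name TopHat2, Picard, SAMtools 0.1.18 and GATK without roles. Not given in the sources used here are the counting program, its strand setting, its treatment of reads with several matches and the genome build. The expected counts deposited by the authors appear to carry 1 factor per library, since a unit of 0.884 to 1.19 divided 89.6 to 90.8% of gene sums up to 1000 evenly (tolerance 0.01 fragments).

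Here FPKM and expected counts were summed per gene. Counts were rounded, filtered by filterByExpr (24850 genes kept), scaled by TMM and fitted with edgeR 4.0.16 in R 4.3.3 as a quasi-likelihood model with 1 mean per group over all 10 libraries, so that groups of 2 share the spread of the others. Benjamini-Hochberg adjustment ran over all genes tested. The fit was tested on simulated data with the same spread for every gene and group, which does not cover the wider spread of ZH11 drought. Intervals of 95% use the fit's standard errors. With that unit divided out the libraries held 28610600 to 37796265 fragments, which make counting error small except for PIP2-4 and PIP2-5. The mean chi-square per gene between replicates, relative to counting error, was 21.7 for ZH11 drought and 6.59 to 11.2 for the other pairs.

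All 10 members are named, with counts and the 3 lowest adjusted p values per drought comparison of 2 related lists. Also named are OSA5 and the 5 genes most like the mean scaled PIP level. The members and lists were chosen with earlier results of these data known. Alternatives were DESeq2 1.42.0, limma 3.58.1 on log2(FPKM + 0.1) and log2(FPKM + 1) for genes at 0.5 FPKM or more in at least 2 libraries, RLE size factors, no filter, the groups compared alone, a replicate block, counts divided by that unit, and each library left out. The plain count scale was added after seeing the data. The RefSeq gene table used for spelling holds no locus IDs of the kind in the files, so the names of members follow the list of IDs given for the family, and those of the other listed genes were paired with IDs by hand. Sequences were not used here.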

Additional observations from a re-analysis of the deposited data

How the results depend on the processing

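Of 12 called member comparisons, 9 kept the call under every other fit, 7 kept it without each library in turn, and none changed sign. Depth limited PIP2-4 most, at 13 fragments in each ZH11 drought library. Fitting only the groups compared gave 8 called members in place of 5 for drought in OsJAZ1-OE and 0 in place of 1 between genotypes under drought. Between genotypes under normal conditions the count went from 0 to 1 (PIP1-3) with DESeq2, with no filter and with the replicate block. Without 1 library the counts were 4 to 7 for drought in ZH11, 3 to 7 for drought in OsJAZ1-OE (3 without OsJAZ1-OE drought replicate 2), 0 to 2 between genotypes under drought (2 without ZH11 normal replicate 2, otherwise 0), and 0 for the other comparisons. The cause of these changes was not tested.

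The sign changed only for log2 differences that were not called. With limma, at either pseudocount, OsJAZ1-OE minus ZH11 under normal conditions was 0.018 for PIP2-1 and 0.013 for PIP2-7. Without 1 library, this difference ran from −0.175 to 0.109 for PIP2-1, −0.112 to 0.182 for PIP2-6 and −0.121 to 0.034 for PIP2-7. Under drought it ran from −0.341 to 0.103 for PIP1-2, −0.058 to 0.218 for PIP2-2 and −0.330 to 0.771 for PIP2-5. The drought response ran from −0.224 to 0.056 for PIP2-1 in ZH11 and −0.010 to 0.260 for PIP1-2 in OsJAZ1-OE. The difference of responses ran from −0.028 to 0.146 for PIP1-1, −0.434 to 0.010 for PIP1-2, −0.007 to 0.157 for PIP1-3, −0.156 to 0.121 for PIP2-2 and −1.0 to 0.102 for PIP2-5.

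The replicate numbers were shared across groups. Deviations of samples with the same number had correlations of −0.101 to 0.242 over 13 pairs, 6 of them over 0.1. All but −0.101 and −0.004 (ZH11 normal with OsJAZ1-OE normal, replicates 3 and 2) were above 0. In a group of 2 libraries the deviations mirror each other, so these pairs are not independent. Whether the numbers pair the samples is thus not settled, and the main fit did not use them. With the replicate block the counts of called members were 6 and 5 for drought in ZH11 and OsJAZ1-OE, 1 between genotypes in each condition and 0 for the difference of responses. The member called between genotypes under drought was then PIP1-3 (adjusted p = 0.0438 in edgeR), with PIP2-4 at 0.0572. In OsJAZ1-OE the block lost PIP2-2 (0.0633) and gained PIP2-6 (0.0109).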
